A study of Caenorhabditis elegans with 2 samples.

Results

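The ONECUT genes ceh-21, ceh-38, ceh-39, ceh-41, ceh-48 and ceh-49 of Caenorhabditis elegans were examined in genome-wide maps of IRX-1, an Iroquois-family homeodomain protein. They are 6 of 19973 nuclear protein-coding genes in the annotation. The genes were listed by family name, and the family was selected on earlier results of these same peak lists. Which measured values led to that choice is not known, so the summits in these lists are all treated as used. Counts and scores at these genes are a description, with no test.

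ONECUT proteins are transcription factors that carry a single CUT domain followed by a homeodomain, both of which contact DNA. Their vertebrate relatives, such as HNF6, act in liver, pancreas and neurons. In C. elegans, several CUT-domain genes, including ceh-38, ceh-48, ceh-41, ceh-39 and ceh-21, act together to promote genes that all neurons express. CEH-39 is also an X-signal element, one of the X-linked factors whose dose in the embryo represses the sex switch gene xol-1.

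Chromatin immunoprecipitation with sequencing was carried out on whole L1 larvae, hermaphrodites of strain OP536, of genotype unc-119(tm4063) III; wgIs536, taken 6 hours after release from a synchronizing starvation that followed bleaching. The wgIs536 transgene expresses IRX-1 with a GFP-FLAG tag at its C-terminus, and the tagged protein was precipitated with an antibody against GFP. There is 1 group of 2 biological replicates, both with the unc-119 mutation, so no difference between conditions exists to be compared. Chromatin came from whole animals, so a weak summit in many cells and a strong one in few cells cannot be told apart, and no read totals were used, so the depth is unknown.

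The deposited peak lists are of 3 kinds. The optimal list holds 2445 regions that repeated in rank between replicates, the pooled list holds 28191 permissive regions called on both replicates together, and the replicate 1 and replicate 2 lists hold 30000 and 24949 permissive regions. Each region has a summit, the position of highest signal, and a peak score that is the authors' own. The median score was 130.7 in the optimal list and 36.31 in the pooled list, and the lowest optimal score was 81.44. Scores are compared only within a list, and rank 1 is the highest score. A promoter summit is one no more than 1000 bp before or 200 bp after the annotated gene start, and a gene body summit lies between gene start and gene end. Distances are given from the gene start along transcription, negative upstream.

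The sequences that frame the results are these, from the RefSeq sequence of WBcel235 (ce11), each read 5′ to 3′. The first is the whole 225 bp between malt-1 and ceh-38, chrII:6951301-6951525 on the plus strand, with the 42 bases inside the optimal peak in capitals. The second is 30 bases around the strongest ONECUT summit, chrII:6951569-6951598 on the plus strand, with the summit base in capitals.
malt-1 to ceh-38: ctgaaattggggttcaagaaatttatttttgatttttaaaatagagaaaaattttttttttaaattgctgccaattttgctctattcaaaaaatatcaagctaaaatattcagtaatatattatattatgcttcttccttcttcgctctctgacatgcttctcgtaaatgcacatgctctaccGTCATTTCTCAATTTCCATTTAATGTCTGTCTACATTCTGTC
ceh-38 summit: aaagaaatctagatAgtatggagtattgtg
The third is 101 bases around the pooled summit upstream of ceh-39, chrX:1856316-1856416 on the minus strand, again with the summit base in capitals. The fourth lies beside the optimal summit inside the X-linked ONECUT cluster, chrX:1853765-1853794 on the minus strand, with the letters ACATGT in capitals, the core known for mouse Iroquois proteins.
ceh-39 upstream summit: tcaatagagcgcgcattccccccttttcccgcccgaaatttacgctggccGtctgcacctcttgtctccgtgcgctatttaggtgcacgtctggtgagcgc
T26C11.9 leader: agaggtattcacACATGTggtggcctaaga

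A single ONECUT gene, ceh-38, had an optimal summit in its promoter window. This is 1 of 6, where 9.6% of all genes had one (1917 of 19973). In the pooled list 2 of 6 members, ceh-38 and ceh-39, had a promoter summit, against 38.1% of all genes. The same 2 genes had a promoter summit in both replicate lists, against 25.6% of all genes. Within gene bodies, 1 of 6 members (ceh-38) had an optimal summit, against 2.72% of all genes. This is the same summit as the one in its promoter window, 57 bp past the gene start. For the pooled list 4 of 6 members (ceh-21, ceh-38, ceh-39 and ceh-41) had a gene body summit, against 36.4% of all genes. One member, ceh-38, had a gene body summit in both replicate lists, against 24.7% of all genes. With 6 genes, each count lies within 2 genes of what the share over all genes would give. The genes ceh-48 and ceh-49 had no summit in promoter or body in any of the 4 lists.

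**Figure D1:**
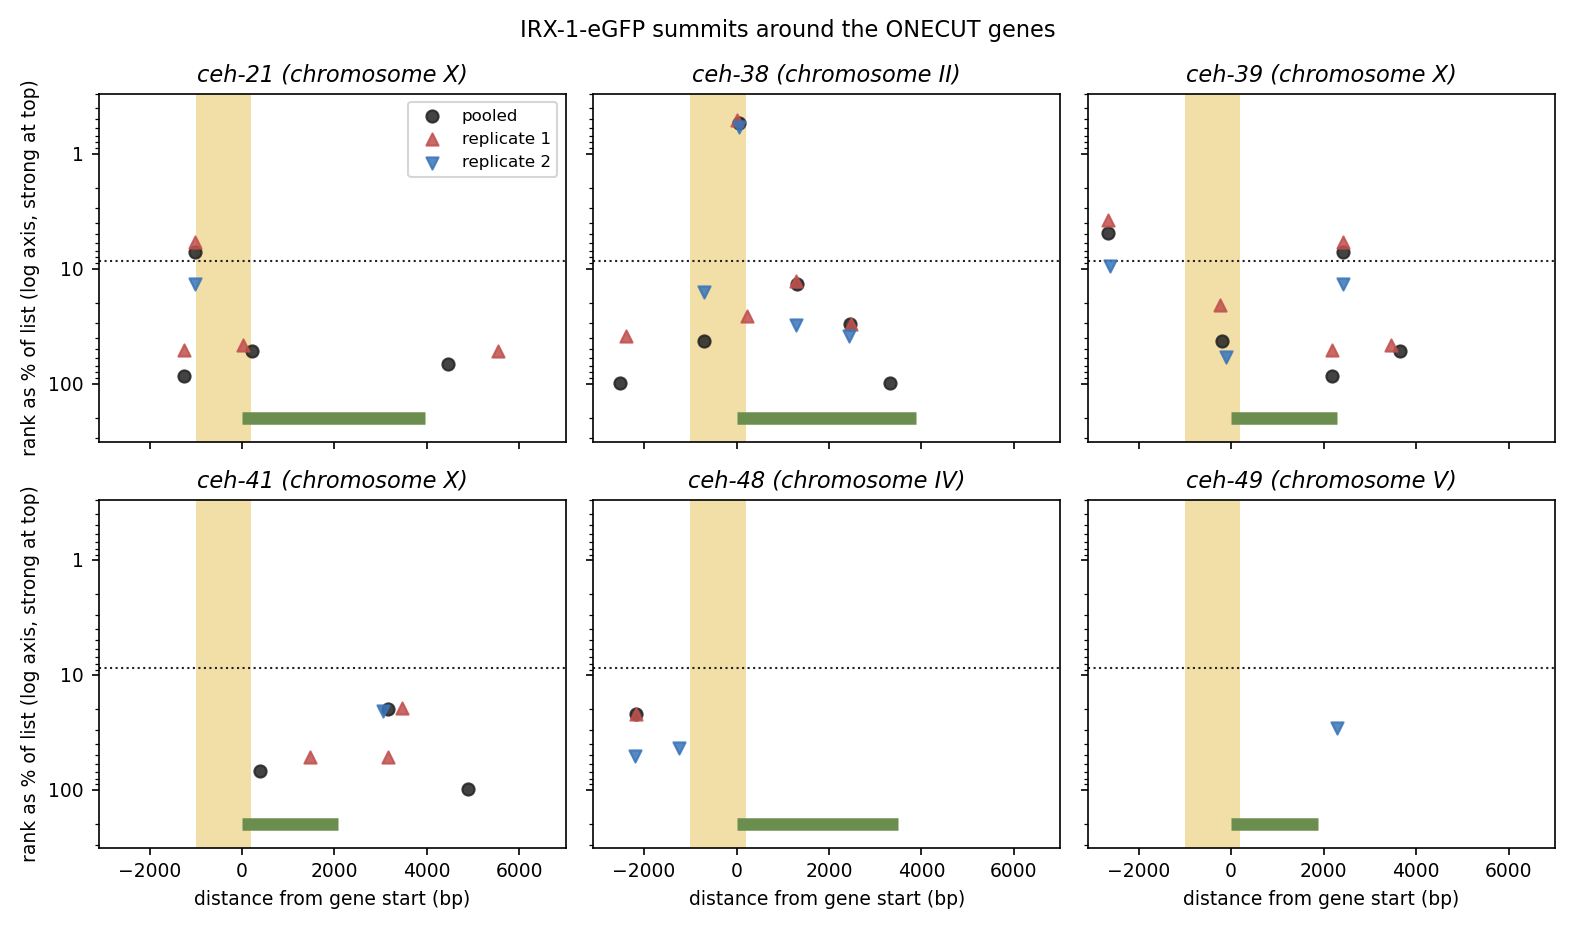
Summits near each ONECUT gene, by distance from the gene start in bp (x axis) and rank as a percentage of the list on a log axis with the strongest at the top (y axis), for the pooled list and both replicates. Shading marks the promoter window, the green bar the gene body, and the dotted line the share of the pooled list that the optimal list amounts to. The 3 markers near the start of ceh-38 stand apart at about 0.5% of their lists (0.539%, 0.51% and 0.589%), and the ceh-48 and ceh-49 windows are empty.

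The gene ceh-38 (WBGene00000459) spans chrII:6951526-6955409 on the plus strand, 3884 bp with 24 annotated transcripts and up to 9 exons. RefSeq describes its product as a One cut domain family member. The optimal and pooled lists hold the same region, chrII:6951484-6951665, with a summit at 6951583, which is 57 bp past the gene start and in the 5′ UTR. Its score was 421.6, rank 152 in both lists, and its deposited −log10 q value was 3.58. In replicate 1 the summit lay at 11 bp, with a score of 230.6 and rank 153 of 30000. In replicate 2 it lay at 62 bp, with a score of 190.8 and rank 147 of 24949. The ranks were close in both replicates, which is a condition for a place in the optimal list. The replicate summits were 51 bp apart. Of all optimal regions, 95.3% had a summit within 100 bp in both replicates. Among the 1917 genes with an optimal promoter summit, 145 (7.56%) had a higher score than ceh-38.

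The optimal peak at ceh-38 was 182 bp wide, where the median optimal width was 410 bp. Peaks this narrow or narrower made up 150 of 2445 (6.13%). In replicate 1 the region was 410 bp wide (chrII:6951332-6951741) and in replicate 2 it was 150 bp wide (chrII:6951511-6951660). The median widths were 410 bp in replicate 1 and 390 bp in replicate 2. Every other region near a member had the median width of its list. These widths are those of the deposited regions, and the shape of the signal itself was not measured.

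The start region of ceh-38 is shared with a neighbour. The gene malt-1, the worm relative of the paracaspase MALT1, starts 226 bp from the ceh-38 start on the opposite strand, and the ceh-38 summit lies 283 bp upstream of it. The summit therefore falls in the promoter windows of both genes, and the lists do not assign it to either. The 24 transcripts of ceh-38 begin at 11 starts in 2 clusters. The upstream cluster has 6 starts and 8 transcripts, from 0 to 140 bp past the gene start, and the downstream cluster has 5 starts and 16 transcripts, from 471 to 544 bp. The summit lies 57 bp past the first start and 36 bp before the next, inside the upstream cluster.

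Other summits of ceh-38 were weak. A pooled summit in the coding sequence at 1298 bp had a score of 62.6 (rank 3829), with replicate 1 at 1283 bp (37.26) and replicate 2 at 1296 bp (22.95). Another in the coding sequence at 2450 bp scored 43.97 (rank 8639), with replicate 1 at 2465 bp (26.17) and replicate 2 at 2428 bp (21.26). These 2 internal summits recurred in both replicates, and both scored under the lowest optimal score of 81.44. A pooled summit at 3315 bp in the 3′ UTR scored 26.72 and had none within 100 bp in either replicate. Upstream, a summit at −706 bp inside an intron of malt-1 scored 38.57 in the pooled list and 30.14 in replicate 2, at −714 bp, and was not in replicate 1. Replicate 1 alone had one at 222 bp in an intron, with a score of 27.95.

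**Figure D2:**
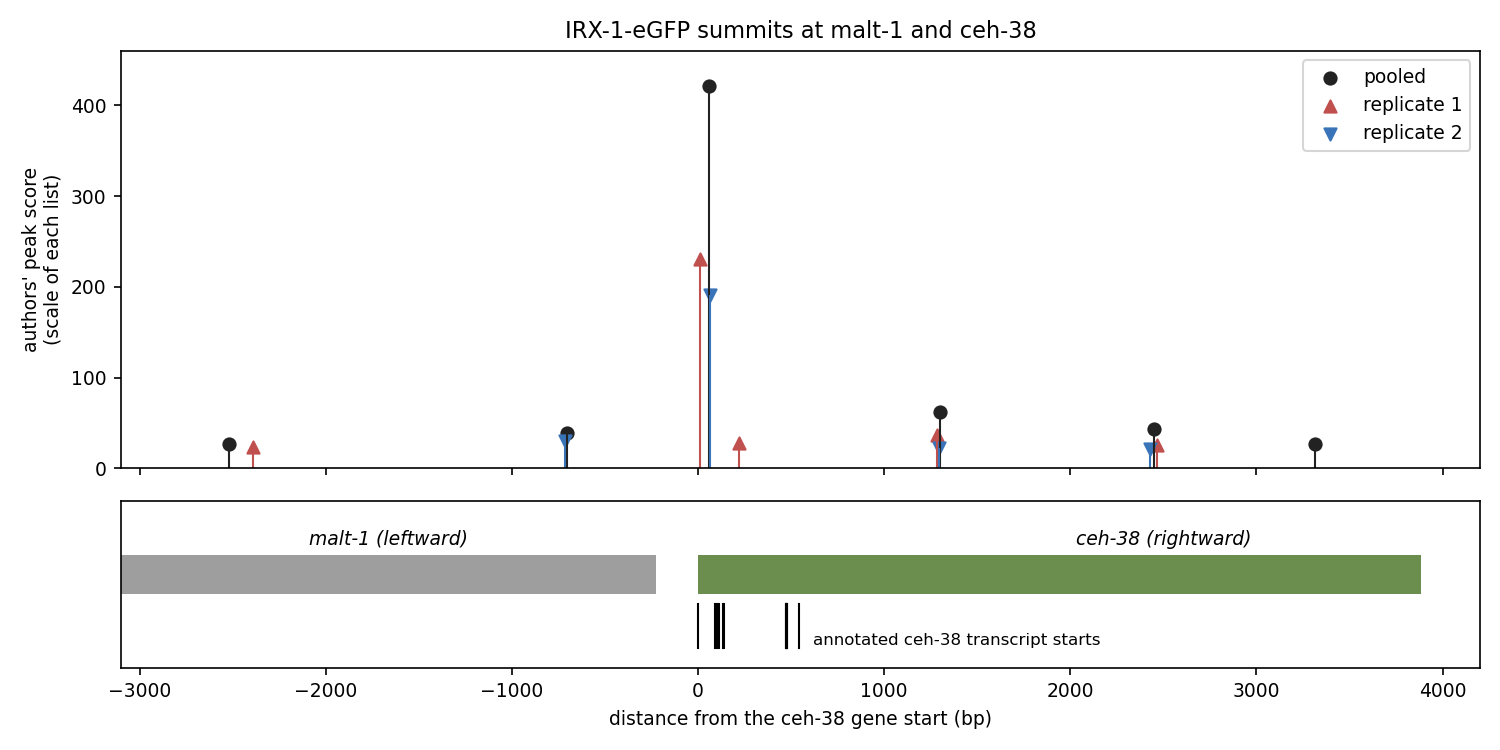
Authors' peak score (y axis, each list on its own scale) against distance from the ceh-38 gene start in bp (x axis), with the genes malt-1 and ceh-38 and the annotated ceh-38 transcript starts below. The pooled summit at 57 bp scores 421.6, and every other pooled summit shown scores 62.6 or less.

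The genes nearest to ceh-38 in their highest promoter ranks over the pooled and 2 replicate lists were sought among 4953 genes with a promoter summit in all 3, by Euclidean distance of log10 ranks. The gene malt-1, whose highest promoter summit is the ceh-38 summit itself, was left out. The nearest others were C24H12.4 and dnsn-1, which share 1 summit, and eef-2, the translation elongation factor. The shared summit of C24H12.4 and dnsn-1 ranked 147, 154 and 154 in the pooled, replicate 1 and replicate 2 lists. That of eef-2 ranked 144, 149 and 148, and it also lies in the promoter window of clsp-1, which has the same ranks. Both summits lie in the promoter windows of 2 genes, as that of ceh-38 does. How common this is among all optimal summits was not counted.

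The genes ceh-39, ceh-21 and ceh-41 form a cluster on the X chromosome, chrX:1846608-1856172, 9565 bp in all and transcribed from the minus strand. In the direction of transcription the order is ceh-39, T26C11.9, ceh-21 and ceh-41. The gaps between them are 24, 101 and 103 bp. The gene T26C11.9 is protein-coding and was not listed as a member.

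The gene ceh-39 (WBGene00000460, chrX:1853874-1856172), the X-signal element, had its highest promoter summit at −194 bp in the pooled list, chrX:1856161-1856570, in intergenic sequence. It scored 38.75 (rank 11957 of 28191), near the pooled median of 36.31, with a deposited −log10 q value of 0.125. Replicate 1 had a summit at −230 bp (30.28, rank 6180) and replicate 2 at −120 bp (18.12, rank 14572). Both replicates thus held a region here, and replicate 2 ranked it in the lower part of its list while replicate 1 ranked it within the upper 20.6%. A pooled summit in the 3′ UTR of ceh-39, 2174 bp from its start, scored 28.61, with a deposited −log10 q value of 0.0266. It had a counterpart in replicate 1 (21.33) but none within 100 bp in replicate 2.

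Further upstream of ceh-39 an optimal summit lay at −2652 bp, chrX:1858619-1859028, inside a tRNA gene on the opposite strand. It scored 119.7 (rank 1379), with 76.95 in replicate 1 (rank 1137) and 39.5 in replicate 2 (rank 2357). It is 1898 bp upstream of the start of T26C11.8, nearer than to ceh-39, and lies outside the promoter window of both.

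The 1 optimal summit inside the cluster did not fall in the window of a member. It lay at 1853757 (chrX:1853552-1853961), in the 5′ UTR of T26C11.9 and 92 bp after that gene's start. It scored 91.98, rank 2025 of 2445, with a deposited −log10 q value of 2.57. The scores were 57.6 in replicate 1 (rank 1754) and 32.34 in replicate 2 (rank 3422). The replicate summits lay within 3 bp of each other. Relative to ceh-21 it is 1021 bp upstream, just outside the 1000 bp limit of the window, and it is 2415 bp from the start of ceh-39, past the end of that gene. It is in the lower part of the optimal list, whose lowest score is 81.44.

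The gene ceh-21 (WBGene00000444, chrX:1848779-1852736) had a pooled summit at 218 bp, just outside the 200 bp limit, in its coding sequence, with a score of 35.79 (rank 14627). Replicate 1 had one at 30 bp (22.11, rank 13918), and replicate 2 had none in the window or the body. The gene ceh-41 (WBGene00000462, chrX:1846608-1848675) had a pooled summit at 396 bp with a score of 31.91 (rank 19236). Replicate 1 had one at 1474 bp (21.12, rank 15547), and replicate 2 had none. The deposited −log10 q values of the pooled summits in ceh-21 and ceh-41 were only 0.0871 and 0.0508. The pooled and replicate 1 summits thus lay 188 bp apart in ceh-21 and 1078 bp apart in ceh-41, and neither gene had a summit that recurred in both replicates. By highest pooled score in promoter or body the order was ceh-38, ceh-39, ceh-21 and ceh-41. The pooled ranks of the last 3 ran from 11957 to 19236, and the ranks of the ceh-39 summit alone were 6180 and 14572 in the replicates, so these 3 genes were not separated beyond the spread between replicates.

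**Figure D3:**
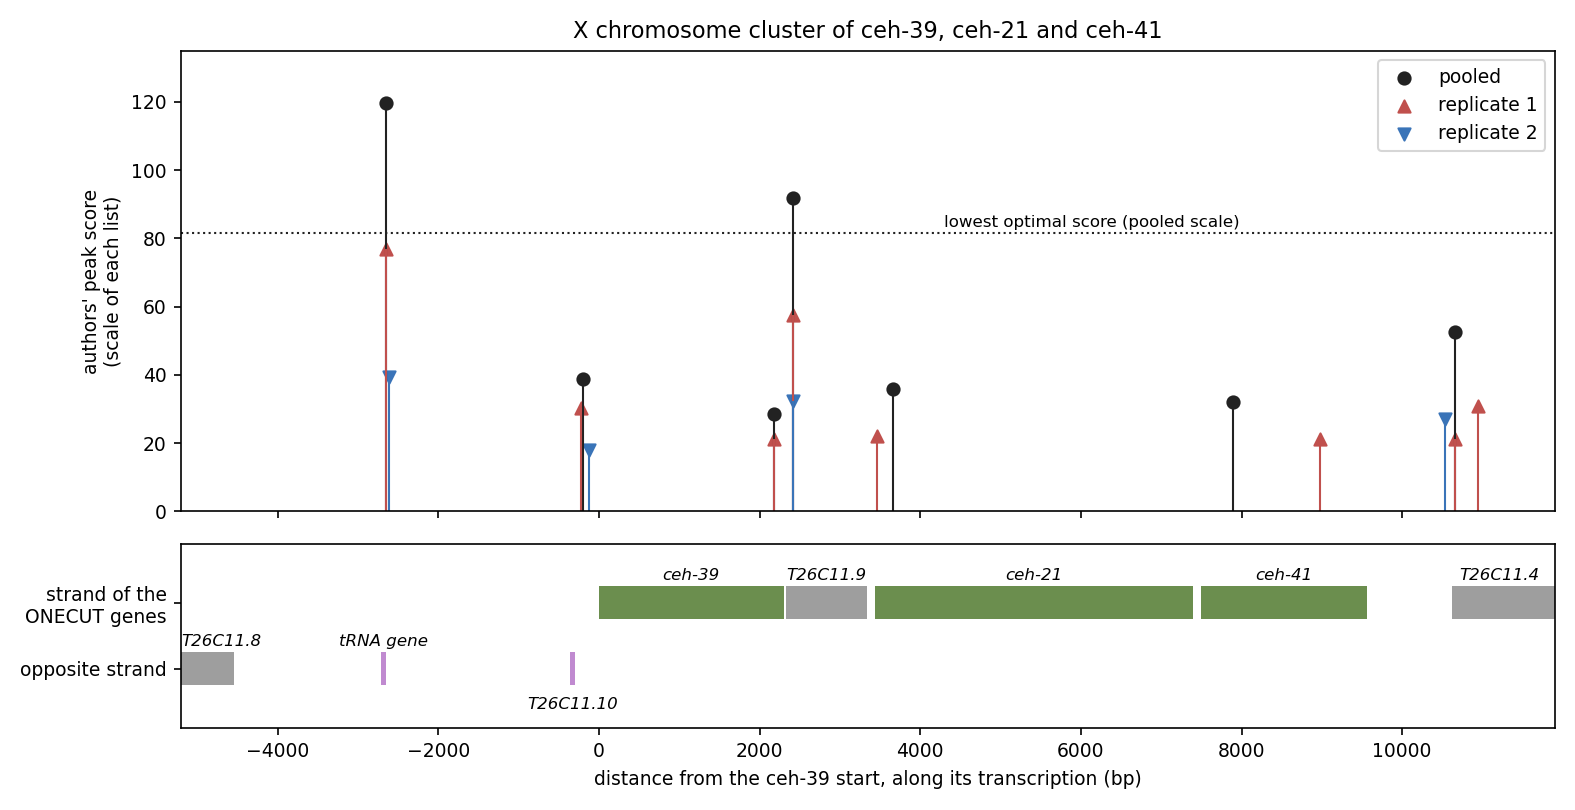
Authors' peak score (y axis, each list on its own scale) against distance from the ceh-39 start in bp along its transcription (x axis), with genes on both strands below. The 2 pooled summits above the dotted line, the lowest optimal score of 81.44, score 119.7 in a tRNA gene and 91.98 at the start of T26C11.9, and none lies in the promoter window of an ONECUT gene.

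The gene ceh-48 (WBGene00015934, chrIV:6812108-6815607), which is expressed across the nervous system, had its nearest pooled summit at −2181 bp (49.89, rank 6210). Replicate 1 had one at −2176 bp (29.64) and replicate 2 at −2193 bp (19.19), with another at −1243 bp (20.32). The summit near −2181 bp therefore recurred in both replicates but lies outside the window and below the optimal list. The nearest optimal summit was 21465 bp upstream (211.5). The gene ceh-49 (WBGene00017538, chrV:6118333-6120206) had its nearest pooled summit 8781 bp downstream of its start (32.01), inside another gene. Replicate 2 had one 2280 bp from the start (23.63), past the gene's end, and the nearest optimal summit lay at 12535 bp (221).

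The empty windows of ceh-48 and ceh-49 lie in regions with summits. Within 20 kb of the start there were 10 pooled summits for ceh-48 and 7 for ceh-49, where the median of all genes was 10 (interquartile range 6 to 14). The count for ceh-38 was 20, above that range, and those of ceh-21, ceh-39 and ceh-41, which overlap, were 11, 12 and 10. Optimal summits within 20 kb numbered 2 for each member except ceh-48, which had 0, with a median of 1 (interquartile range 0 to 2) over all genes. Among the neighbours, C17H12.10, which starts 5309 bp before ceh-48, had a pooled promoter summit of 76.95 at −55 bp. On the X chromosome T26C11.4, which follows ceh-41, had one of 52.43 at 29 bp. The other neighbours T26C11.8, C17H12.5, F17A9.5 and exp-2 had no promoter summit in the 4 lists, and tra-2, the sex-determination gene whose 3′ end overlaps that of ceh-38 by 26 bp, had none either.

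In all, 9 pooled summits lay in the promoter or body of a member. Of these, 4 (44.4%) had a summit within 100 bp in both replicates, against 33% of all pooled regions and 95.3% of optimal regions. Of the 4, 3 are in ceh-38, at 57, 1298 and 2450 bp, and 1 is the summit upstream of ceh-39.

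The other gene lists place these scores among related genes. They were chosen with earlier results known and serve as description. Of 96 other homeobox genes, 3 (3.12%) had an optimal promoter summit, against 9.6% of all genes. These were irx-1 itself (321.7, rank 280), ceh-13 (136.5, rank 1152), a Hox gene of the labial type, and mab-5 (97.52, rank 1855), a Hox gene of the posterior body. The score at ceh-38 was above that of each of these 3, and irx-1 is the gene that the transgene carries. Among all genes with an optimal promoter summit, 7.56% scored above ceh-38. In the pooled list 29 of the 96 (30.2%) had a promoter summit, against 38.1% of all genes, with a median highest score of 38.77, against 44.8 over all genes with a pooled promoter summit.

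Of the 2 other CUT genes, which are also counted among the 96, 0 had an optimal promoter summit. The gene ceh-44 had a pooled summit at −299 bp (38.77), with 19.13 in replicate 1 and 17.73 in replicate 2. That pooled summit lies in the coding sequence of another gene, ndua-8. The gene dve-1 had a promoter summit in the replicate 2 list (18.74) but in none of the other 3 lists. Of 12 genes of the X signal, dosage compensation and sex determination, 1 had an optimal promoter summit (9.6% of all genes), sdc-2, which recruits the dosage compensation complex to X. Its summit at −464 bp scored 133.3 (rank 1188), with 58.46 in replicate 1 and 79.53 in replicate 2. Of this list 7 of 12 had a pooled promoter summit, against 38.1% of all genes, with a median highest score of 54.8, against 44.8 over all genes with one. Of these 7, 4 are the sex-determination genes fem-1, fem-2, fem-3 and tra-1.

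Another list holds 24 genes taken as pan-neuronal, that is expressed in all neurons, the kind of gene that CUT factors promote. Expression of each in all neurons was not checked. Of the 24, 5 (20.8%) had an optimal promoter summit, against 9.6% of all genes. They were syd-2 (183), an organizer of presynaptic active zones, maco-1 (131.9), ehs-1 (117.5), an endocytosis adaptor, ric-19 (111.5), a dense-core vesicle factor, and rgef-1 (99.74), a Ras exchange factor of neurons. In the pooled list 18 of 24 had a promoter summit, against 38.1% of all genes, with a median highest score of 63.99, against 44.8. The score of each of these 5 genes was below that of ceh-38, as was that of most genes with an optimal promoter summit (7.56% were above).

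**Figure D4:**
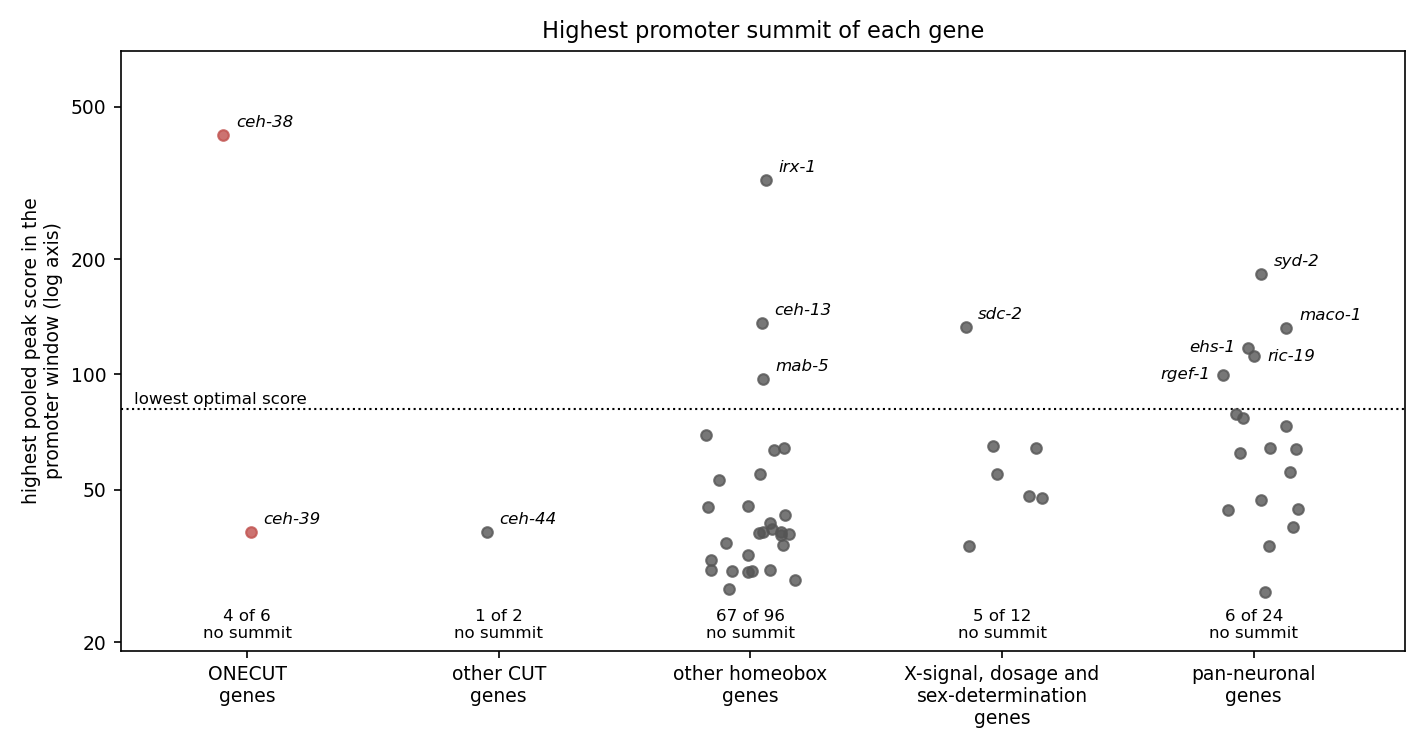
Highest pooled peak score in the promoter window (y axis, log scale) of each gene in 5 lists (x axis), 1 point per gene, with the number of genes without a summit below and horizontal scatter for legibility only. The point for ceh-38 at 421.6 lies above the points of all lists shown, and the dotted line is the lowest optimal score of 81.44.

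The letters around the summits were searched on both strands for ATCGAT and ATTGAT, sites known for vertebrate ONECUT proteins, for ACATGT, and for GAGAGA. Within 50 bp of the ceh-38 summit none of these 4 was present, and none was present in the 250 bases upstream of any of the 6 members. Over all optimal summits, 4.21% held ATCGAT, 6.5% ATTGAT, 3.35% ACATGT and 26.5% GAGAGA within the same distance. Over the 250 bases upstream of all genes, 10.2% held ATCGAT, 26.8% ATTGAT, 6.84% ACATGT and 19.1% GAGAGA.

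The optimal summit at T26C11.9 had 1 ACATGT, whose first base lies 25 bp upstream of the summit in the sequence printed above, and 1 GAGAGA. A match to ATTGAT lay within 50 bp of the pooled summits at 2450 bp in ceh-38 and 2174 bp in ceh-39. The share of G and C within 50 bp was 44.6% at the ceh-38 summit, 46.5% at the T26C11.9 summit and 58.4% at the summit upstream of ceh-39, where the median over optimal summits was 46.5%. The 225 bp between malt-1 and ceh-38 held 28.9% G and C. Among members without an optimal promoter summit, the share was similar or lower before ceh-21, ceh-41, ceh-48 and ceh-49. It was not lower at ceh-39, where the 101 bases around the upstream summit held the 58.4% given above. The gaps before ceh-21 and ceh-41 held 22.8% and 27.2%, and the 250 bases before ceh-48 and ceh-49 held 25.6% and 28.8%. These matches describe letters in the windows only.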

How the data were processed

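IRX-1-eGFP chromatin immunoprecipitation was measured in 2 biological replicates of whole L1 larvae. The authors deposited peak lists on ce11 and ce10. The ce11 lists were used, and the ce10 lists were not used here for lack of an annotation of that build. Per the notes deposited with the samples, the replicate and pooled lists are permissive sets of peaks and background derived from alignments with a control, and the optimal list was thresholded by irreproducible discovery rate, which measures how well ranks repeat. The name of the peak caller, the aligner and the cutoff were not stated. For every region the authors deposited a score, whose formula is unstated, and a −log10 q value. The score set all ranks, and the −log10 q value served only for an alternative ranking and to describe single summits.

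Summits were set against Ensembl release 115 (WBcel235, the assembly that ce11 names) with Python 3.11.15. Sequences were read from the RefSeq genome, and motifs upstream of genes were sought in the 250 bases before the start, where a slightly longer window had been planned. The counting was tested on simulated data. The members and lists were chosen with earlier results of these data known. Named genes were all members, the neighbours with the nearest gene starts, the 3 genes nearest to ceh-38 in ranks, and each listed gene with an optimal promoter summit. The listed cux-7 was dropped because RefSeq annotates that identifier as an RNA-binding protein, ceh-44 was matched by identifier, and sex-2 matched no gene. A planned protein comparison was not run. Alternatives were other windows, any transcript start, any base of a region, the higher-scoring part of the list, each replicate alone, and top regions only. Where no read totals were used, precision cannot be given.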

Additional observations from a re-analysis of the deposited data

How the results depend on the processing

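Of 25 alternatives, 17 left the count of members within 1.5 times. The wider window reached 2000 bp before and 500 bp after the start. With it the optimal promoter count was 2 (12.4% of all genes), adding ceh-21. The pooled promoter count was 4 (53.1% of all genes), adding ceh-21 and ceh-41. The promoter count in both replicates was 3 (39.5% of all genes), adding ceh-21. With any base of a region in place of its summit, these 3 counts were the same. The shares of all genes were then 10.3%, 43.7% and 30%. Promoter summits in both replicates fell to 1, ceh-38, when each list was limited to its top 2445 regions, by score or by q value. The share of all genes was then 7.55% in each case. Regions of equal q value were ordered by score, so the ranking by q value is not a separate check. With any base of a region, the optimal gene body count was 2 and that for both replicates was 2, each adding ceh-39. The shares of all genes were 6.59% and 32.5%. The optimal list needs both replicates, so it cannot be remade with replicate 1 or replicate 2 left out. Taking the remaining replicate alone in its place, the promoter count was 1, against 9.24% and 9.31% of all genes. The gene body count was also 1, against 2.81% and 2.72% of all genes. The member was ceh-38 in each case. No paired analysis was possible because there is just 1 group. Read depth was not used, so a missing summit at ceh-48 or ceh-49 cannot be told apart from one too weak for these lists.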

Other observations

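2 features of the sequence at these genes were noticed after the sequences were read. They are descriptions with no test. The short gaps upstream of ceh-21 (chrX:1852737-1852837, minus strand) and ceh-41 (chrX:1848676-1848778, minus strand) share a run of 11 bases, in capitals, the longest shared run that uses all 4 letters.
T26C11.9 to ceh-21: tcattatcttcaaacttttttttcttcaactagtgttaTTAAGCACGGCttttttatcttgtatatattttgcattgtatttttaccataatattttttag
ceh-21 to ceh-41: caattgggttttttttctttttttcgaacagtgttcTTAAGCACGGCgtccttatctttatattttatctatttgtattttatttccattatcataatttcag
The run lies 63 and 67 bases before the starts of ceh-21 and ceh-41, and 4 of 19973 windows of 250 bases upstream of a gene hold it on either strand (0.02%). The others belong to mrpl-36 and Y73F8A.15. No pooled or replicate summit lay in the gap upstream of ceh-41.

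The bases directly before the annotated start end in AG in 5 of 6 members (83.3%), the exception being ceh-38, and in 5510 of 19973 genes (27.6%). AG is the end of introns and of the sites where worm transcripts receive a spliced leader, so an annotated start of this kind can lie downstream of where transcription begins. Whether that holds for these 5 genes was not tested.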
